A study of Mus musculus with 40 samples.

Results

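The comparison covers moderate to severe dysplasia of the airway in SWR/J mice against normal SWR/J tissue, measured by RNA-Seq. Samples were included if their strain label was SWR/J, their quality control was marked as passed and their grade was either moderate to severe dysplasia or normal, which left 10 of the 40 samples in the series (25 of 40 passed). The dysplasia group held 6 samples, 3 of laser capture microdissected (LCM) cells and 3 of whole lung sections, from mice painted on the skin with N-nitroso-tris-chloroethylurea (NTCU), a carcinogen that gives rise to squamous lesions of the bronchi. The normal group held 4 samples, 1 LCM and 3 whole lung, from mice given the acetone vehicle. Cumulative NTCU was 30 µmol for replicates 1 and 2 and 25 µmol for replicate 3 of both the LCM and the whole lung dysplasia samples, and 0 µmol for the normal samples. The mice were female and of an inbred strain, and the labels name no transgene or mutant allele in either group. For whole lung sections the grade is the worst histology seen in the section, so that much of its RNA can come from tissue of another grade. Fewer cells of a type cannot be told apart from less RNA per cell in such bulk samples. The dysplasia group differs from the normal group in NTCU and in histology together, so these cannot be told apart either. Sample source was a term in every test except where stated, and the labels do not say which samples came from 1 animal, so p-values measure the spread between samples.

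In a bronchial premalignant lesion the normal layer of ciliated, secretory and basal cells is replaced by expanding basal cells that mature abnormally towards a squamous, keratinised state. Interferon gamma made by lymphocytes acts on neighbouring cells, where it raises the immunity-related GTPases (Irgm1, Igtp, Iigp1 and relatives) and the guanylate-binding proteins (Gbp genes). Both families take part in the defence against intracellular pathogens. Through the coactivators of the MHC genes interferon gamma also raises antigen presentation. Neutrophils are drawn to tissue by ELR chemokines such as Cxcl3 and Cxcl5, and cytokines of the IL-6 family act through STAT3 to raise acute-phase proteins.

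The 10 libraries held between 3447363 and 14157267 expected counts in total, and their median transcript integrity number (TIN), a measure of how evenly transcripts are covered that falls as RNA degrades, ran from 23.7 to 60.7. In dysplasia it was 23.7 to 48.4. In the normal samples it was 28.9 in whole lung normal 2 and 50.5 to 60.7 in the others. TIN thus differed in part with grade, and fits with it as a covariate are given below for several lists. The first principal component took 43.6% of the variance and did not separate the grades. LCM dysplasia 2 and 3, whole lung dysplasia 3 and whole lung normal 2 lay on one side and the other 6 samples on the other. The samples on the first side had the lowest median TIN (23.7 to 44.1), and the other 6 had 45.1 to 60.7. The part of RNA integrity in this component was not tested. The samples also differed in the tissue they held. Summed over the 32 squamous differentiation genes in the table, whole lung normal 2 reached 124163 CPM (counts scaled to the size of the library), whole lung dysplasia 3 reached 57645 CPM and LCM dysplasia 3 reached 30947 CPM, against 503 to 6968 CPM in the other 7 samples. Thymocyte and T cell genes summed to 7509 CPM in LCM normal 1, 9470 CPM in whole lung normal 1 and 6388 CPM in LCM dysplasia 1, against 39.4 to 3381 CPM in the others. Skeletal muscle genes were highest in LCM dysplasia 3 (12851 CPM) and whole lung dysplasia 3 (11396 CPM). The lung itself was seen in every sample, with alveolar type 2 genes at 957 to 21482 CPM in all and club and secretory cell genes at 1063 to 90507 CPM. The LCM normal sample had the highest sum of secretory genes.

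**Figure D1:**
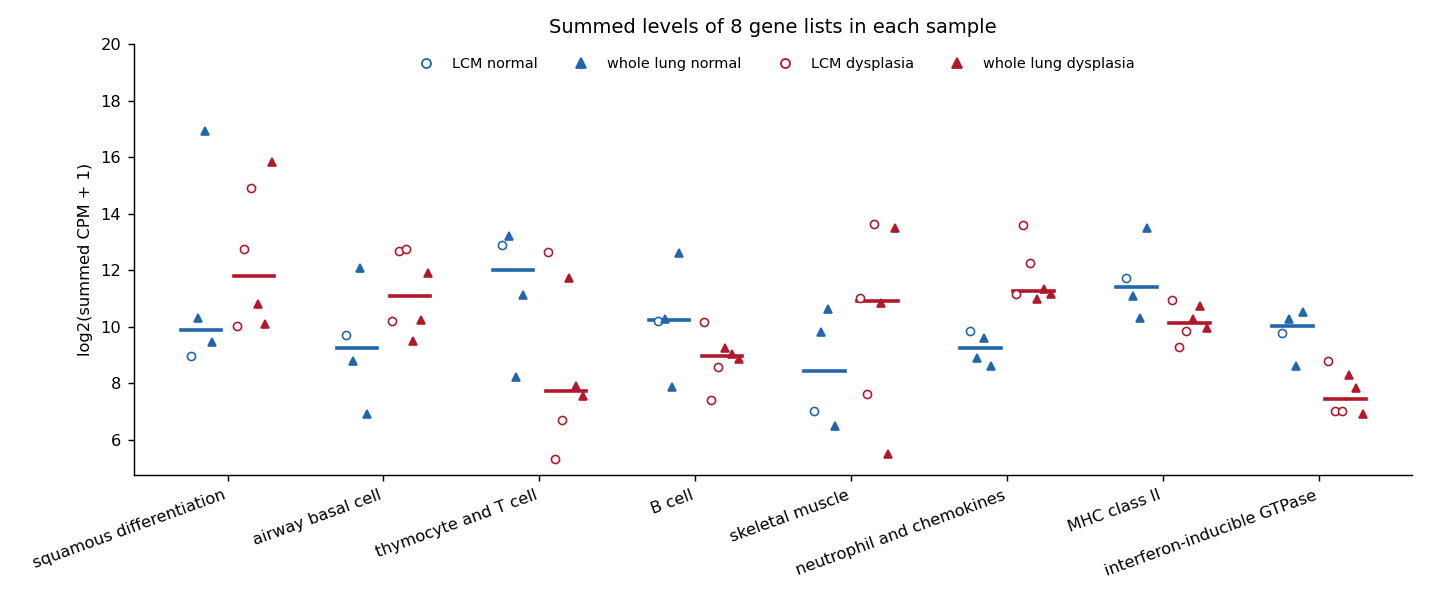
Summed CPM of 8 gene lists in each of the 10 samples, on a log2 scale after adding 1; circles are LCM samples, triangles whole lung sections, blue normal, red dysplasia, and bars the group medians. Whole lung normal 2 stands far above the other normal samples for squamous genes (124163 CPM), and the neutrophil and chemokine sums of the 6 dysplasia samples (1997 to 12275 CPM) lie above those of all 4 normal samples (389 to 911 CPM). No single tested gene of the neutrophil and chemokine list was apart between the groups.

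Over 15480 genes tested with edgeR's quasi-likelihood test, no gene passed an adjusted p of 0.05 (0 of 15480, percent called 0, smallest adjusted p = 0.676). At an unadjusted p under 0.05, 606 genes were higher in dysplasia (3.91% of those tested) and 431 were lower (2.78%), 1037 in all. In 88 genes (0.568%) all 6 dysplasia samples exceeded all 4 normal samples, and in 112 genes (0.724%) all 6 lay below. DESeq2 on the same samples called 44 genes (0.284%) at an adjusted p under 0.05, 24 higher and 20 lower, and 1600 at an unadjusted p under 0.05. Limma voom with TIN as a covariate called 0, with 1029 at an unadjusted p under 0.05. The values below are therefore given as sizes with their standard errors (SE), and a gene called higher or lower did not pass the edgeR adjustment.

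Of the 12 lower genes with the smallest edgeR p, 6 were interferon-inducible GTPases. Of the 16 members of this family that had enough signal to test and are not annotated as pseudogenes, a list drawn up after the values were seen, all 16 had a negative log2 fold change, 13 were lower at an unadjusted p under 0.05 against a background of 2.78% of all genes, and in 7 the groups did not overlap against a background of 0.724%. Their median log2 fold change was -2.09, where the median over all genes tested was -0.06. DESeq2 called 6 of the 16, among its 20 lower calls. Gm12250, which the annotation used for the counts lists as a pseudogene, is not among the 16 and its values are given apart. The summed level of the family was 395 to 1481 CPM in the normal samples and 121 to 436 CPM in dysplasia, so that only LCM dysplasia 1 reached the lowest normal sample.

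Promoters of 4 of these genes are shown because the members lay low together and because the interferon-response letters in them can be read directly. Windows of 300 bases around the transcription start (250 bases before it and 50 after it) came from RefSeq on GRCm38.p6, a later build than the one used for the counts, and 9 of the 16 members matched a window by symbol. The capitals mark matches to GAAANNGAAA, the core of the interferon-stimulated response element (ISRE), and to TTCNNNGAA, the gamma-activated site (GAS), each searched on both strands.
Gbp2, chr3:142620413-142620712, plus strand: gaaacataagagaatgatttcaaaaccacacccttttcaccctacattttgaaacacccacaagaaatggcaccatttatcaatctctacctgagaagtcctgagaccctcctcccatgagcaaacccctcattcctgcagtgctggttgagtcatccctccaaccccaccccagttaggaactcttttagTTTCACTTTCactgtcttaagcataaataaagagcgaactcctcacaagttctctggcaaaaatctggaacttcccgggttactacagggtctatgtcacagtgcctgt
Irgm1, chr11:48871371-48871670, minus strand: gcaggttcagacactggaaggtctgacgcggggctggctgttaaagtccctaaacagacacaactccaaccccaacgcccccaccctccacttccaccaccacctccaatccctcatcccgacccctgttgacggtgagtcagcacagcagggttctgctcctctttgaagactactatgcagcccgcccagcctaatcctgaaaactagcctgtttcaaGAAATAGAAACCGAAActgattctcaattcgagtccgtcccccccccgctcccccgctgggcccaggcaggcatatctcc
Irgm2, chr11:58214727-58215026, plus strand: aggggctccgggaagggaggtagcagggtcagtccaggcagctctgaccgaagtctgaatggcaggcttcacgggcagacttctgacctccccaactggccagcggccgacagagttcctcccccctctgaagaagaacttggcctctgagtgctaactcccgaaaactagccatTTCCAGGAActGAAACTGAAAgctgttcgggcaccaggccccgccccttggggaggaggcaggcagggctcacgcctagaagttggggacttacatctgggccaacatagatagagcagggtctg
Tgtp2, chr11:49064163-49064462, minus strand: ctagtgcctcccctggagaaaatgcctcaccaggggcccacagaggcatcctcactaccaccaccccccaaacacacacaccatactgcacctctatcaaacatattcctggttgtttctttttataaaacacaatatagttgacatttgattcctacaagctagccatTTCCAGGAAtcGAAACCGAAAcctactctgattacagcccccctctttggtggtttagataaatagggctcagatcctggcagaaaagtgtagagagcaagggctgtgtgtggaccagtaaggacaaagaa
The ISRE core was found for 9 of these 9 members and in 3.43% of all 32817 windows, and the GAS for 6 of 9 members and in 8.29% of all windows. In Irgm2 and Tgtp2 the 2 motifs stood side by side, and the capitals of the 4 windows lay between 81 and 15 bases before the start. A match is a run of letters and does not show that a factor was bound in these samples, and the 2 motifs overlapped in 23 of all windows.

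Iigp1, an immunity-related GTPase on chr18:60535683-60552281 (mm9), had 52.4 CPM in LCM normal 1 and 143, 25.7 and 85.1 CPM in whole lung normal 1, 2 and 3. In dysplasia it ranged from 6.64 to 18.4 CPM with a median of 12.7 CPM. No dysplasia sample reached the lowest normal sample, and the log2 fold change was -2.46 (SE 0.46; edgeR adjusted p = 0.676; DESeq2 adjusted p = 0.00211).

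Irgm2, on chr11:58028530-58036282 (mm9), regulates the activity of the effector GTPases. It had 28.2, 37.7, 18.8 and 57.5 CPM in the normal samples in the same order and 7.10 to 14.0 CPM in dysplasia (median 10.2). The groups were apart, with a log2 fold change of -1.72 (SE 0.36; edgeR adjusted p = 0.676; DESeq2 adjusted p = 0.00949).

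Gbp2, a guanylate-binding protein on chr3:142283566-142300972 (mm9), had 68.3, 76.7, 49.1 and 124.6 CPM in the normal samples and 20.0 to 38.5 CPM in dysplasia (median 28.1), a log2 fold change of -1.51 (SE 0.34). Gbp6 had 28.1, 28.7, 10.4 and 41.8 CPM in the normal samples and 1.05 to 9.23 CPM in dysplasia (median 3.85), a log2 fold change of -2.88 (SE 0.63). Both genes were apart between the groups. For Gbp1, which the current annotation calls Gbp2b, the size of the difference depended on 1 library. Its normal values were 8.80, 8.73, 3.84 and 152 CPM against 0.154 to 1.68 CPM in dysplasia, without overlap. Its log2 fold change of -5.00 (SE 1.17) became -2.93 without whole lung normal 3.

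Tgtp2, an effector GTPase that coats pathogen vacuoles, had 75.8, 60.7, 39.9 and 136 CPM in the normal samples and 1.39 to 21.8 CPM in dysplasia (median 9.14), a log2 fold change of -2.72 (SE 0.66). Its near-identical neighbour Tgtp1 had a log2 fold change of -3.08 (SE 1.06), and reads shared by the pair can have been split between them by the counting, so the values of each are uncertain. Gm12250, also known as Irgb10 and outside the 16, did not overlap between the groups either, with 8.80, 13.5, 10.4 and 36.8 CPM in the normal samples and 0.747 to 4.87 CPM in dysplasia (log2 fold change -2.40, SE 0.58).

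Gbp4 was the last of the 7 among the 16 whose groups did not overlap (90.6 to 172 CPM in normal, 7.41 to 59.9 CPM in dysplasia). Irgm1, Gbp3, Igtp, Gbp7, Tgtp1 and Gbp10 were lower at an unadjusted p under 0.05 with overlapping groups, and Gbp5, Gbp9 and Gbp8 did not reach that p. In 25 alternative fits the median of the 16 ranged from -2.66 to -1.35 and remained negative in all 16 members in each, including the fit with TIN, where 12 were lower at an unadjusted p under 0.05, and the fit without the 3 samples rich in thymocyte and T cell genes, where 10 were. With LCM samples alone 3 were.

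**Figure D2:**
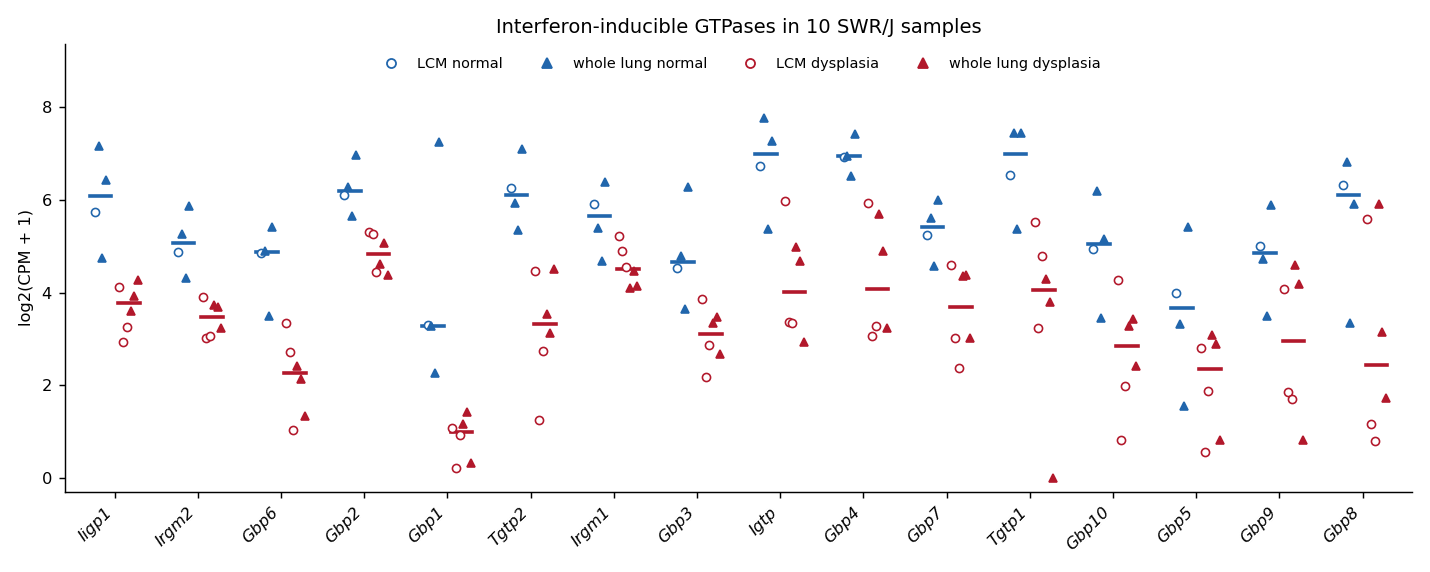
Levels of the 16 interferon-inducible GTPases in each sample, as log2(CPM + 1), ordered by edgeR p; circles are LCM samples, triangles whole lung sections, blue normal, red dysplasia, and bars the group medians. Iigp1, Irgm2, Gbp6, Gbp2, Gbp1, Tgtp2 and Gbp4 show no overlap between the groups, whereas Gbp8 reached 59.7 CPM in 1 whole lung dysplasia sample.

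The interferon-stimulated list had a smaller median difference than the GTPases. Of its 30 genes, which include some of the GTPases such as Irgm1 and Igtp, 29 were lower, with a median log2 fold change of -0.76. At an unadjusted p under 0.05 there were 10, against 2.78% of all genes. Cxcl9, a T cell chemokine induced by interferon gamma, had 41.3, 9.15, 7.67 and 175 CPM in the normal samples and 1.32 to 13.5 CPM in dysplasia (log2 fold change -4.07, SE 1.13). The groups overlapped for Cxcl9, and with 1 sample left out its log2 fold change ran from -4.69 to -2.1. With TIN as a covariate 21 of the 30 were lower and the median was -0.22, and without LCM normal 1 alone 19 of the 30 were lower and the median was -0.34.

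All 10 MHC class II genes, whose products show peptides to CD4+ T cells, were lower at an unadjusted p under 0.05, against 2.78% of all genes. Their median log2 fold change was -1.88. H2-DMa, which loads peptide onto class II, had 68.3, 41.6, 28.4 and 187 CPM in the normal samples and 13.3 to 33.6 CPM in dysplasia (log2 fold change -1.63, SE 0.52). The class II chain H2-Ab1 had 802, 484, 291 and 1598 CPM in the normal samples and 171 to 509 CPM in dysplasia (log2 fold change -1.42, SE 0.53). For both, whole lung normal 3 was the highest sample and whole lung normal 2 lay inside the dysplasia range, as did whole lung normal 1 for H2-Ab1. This count rested on whole lung normal 3: without it 0 of the 10 passed an unadjusted p of 0.05 and the median was -0.93, and with TIN as a covariate 0 passed and the median was -0.79, though all 10 stayed negative in both. It was 3 without LCM normal 1, 4 without whole lung dysplasia 1 and 5 without whole lung dysplasia 3.

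MHC class I genes and those of its peptide supply were lower too, with 17 of 19 genes lower and a median of -0.79. At an unadjusted p under 0.05 there were 7, against 2.78% of all genes. H2-T23, a nonclassical class I gene, had 80.6, 72.2, 37.2 and 157 CPM in the normal samples and 13.1 to 55.8 CPM in dysplasia (log2 fold change -1.65, SE 0.50). Psmb9, an immunoproteasome subunit, had a log2 fold change of -1.82 (SE 0.66) and Tap1, which carries peptides into the endoplasmic reticulum, had -0.99 (SE 0.36). The count at an unadjusted p under 0.05 ran from 1 (without whole lung normal 3, and without whole lung dysplasia 3) to 12 (without whole lung normal 2), was 3 without LCM normal 1 and was 4 without LCM dysplasia 2, LCM dysplasia 3 or whole lung dysplasia 2. With TIN as a covariate 1 of the 19 passed and the median was -0.36.

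Lymphocyte genes were lower alongside. Of the 13 B cell genes all were lower (median -2.17) and 8 were so at an unadjusted p under 0.05, against 2.78% of all genes. Among them Ms4a1, which encodes CD20, had 20.8, 37.0, 18.0 and 365 CPM in the normal samples and 0.299 to 20.8 CPM in dysplasia. Without whole lung normal 3, 0 of the 13 passed, without whole lung dysplasia 1 the number was 2, and without LCM normal 1 or whole lung dysplasia 3 it was 3. With TIN as a covariate 0 of the 13 passed, 2 were positive and the median was -0.97. All 21 thymocyte and T cell genes tested were lower (median -1.67), but only Gzmb, a cytotoxic granule protease, did so at an unadjusted p under 0.05 (log2 fold change -1.23, SE 0.48). Over all genes 2.78% were lower at that p, and 3 samples were rich in the thymocyte and T cell genes. Leaving out LCM dysplasia 1, 1 of those 3, 7 of the 21 were lower at an unadjusted p under 0.05 and the median was -3.25, and without whole lung dysplasia 1 the median was -3.31. With TIN as a covariate 0 passed and the median was -0.20. Summed B cell genes reached 6264 CPM in whole lung normal 3, against 230 to 1233 CPM in the other normal samples and 167 to 1144 CPM in dysplasia. The part of lymphocyte content in the MHC and interferon-stimulated values was not tested. Without the 3 samples rich in T cell genes the median of the GTPases was -2.04, in a fit that kept whole lung normal 3, the sample richest in B cell genes, and without whole lung normal 3 it was -1.85. Immunoglobulin segments, a list also drawn up after the values were seen, were lower in 40 of 45 (median -2.44, or -0.56 over the 33 tested without whole lung normal 3). At an unadjusted p under 0.05, 12 of the 45 were lower, against 2.78% of all genes. With TIN as a covariate 2 were, 13 of the 45 were positive and the median was -0.45. Igkv1-135 had 50.9, 36.8, 0.384 and 30.3 CPM in the normal samples and 0 to 1.32 CPM in dysplasia (log2 fold change -5.86, SE 1.16, DESeq2 adjusted p = 0.00117), with whole lung normal 2 inside the dysplasia range. Reads from related immunoglobulin segments can be exchanged in counting, so single segments, Igkv12-46 included (log2 fold change -4.98, SE 1.15), are uncertain.

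3 further genes were lower by the same rule. Klf3, a transcriptional repressor of the Krüppel-like family, had 12.5, 14.4, 21.5 and 19.4 CPM in the normal samples and 4.94 to 8.19 CPM in dysplasia, with no overlap and a log2 fold change of -1.24 (SE 0.28). Serpina3f, a serine protease inhibitor, had 24.9, 13.3, 25.3 and 85.4 CPM in the normal samples and 1.79 to 11.6 CPM in dysplasia, also without overlap (log2 fold change -2.60, SE 0.59). Bpifb1, a secreted protein of airway goblet and gland cells, had 302, 26.8, 62.2 and 1.85 CPM in the normal samples and 1.32 to 9.13 CPM in dysplasia (log2 fold change -4.17, SE 0.80), so that whole lung normal 3 lay among the dysplasia samples. In the club and secretory cell list 11 of 18 genes were higher, and the median log2 fold change was 0.33. In fits of each source alone the median was 1.11 in whole lung and -1.11 in LCM. Bpifb1 was the leading gene of this list, in which 2 of the 18 genes were lower at an unadjusted p under 0.05 and none higher, against 2.78% and 3.91% of all genes. The other was Scgb3a1, a secretoglobin of the upper airways, with 5703, 393, 9.21 and 8.77 CPM in the normal samples and 6.26 to 655 CPM in dysplasia (log2 fold change -3.03, SE 1.15). It ran from -3.67 to -1.59 with 1 sample left out, the last without whole lung normal 1, and was 1.54 without the 3 samples rich in T cell genes.

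**Figure D3:**
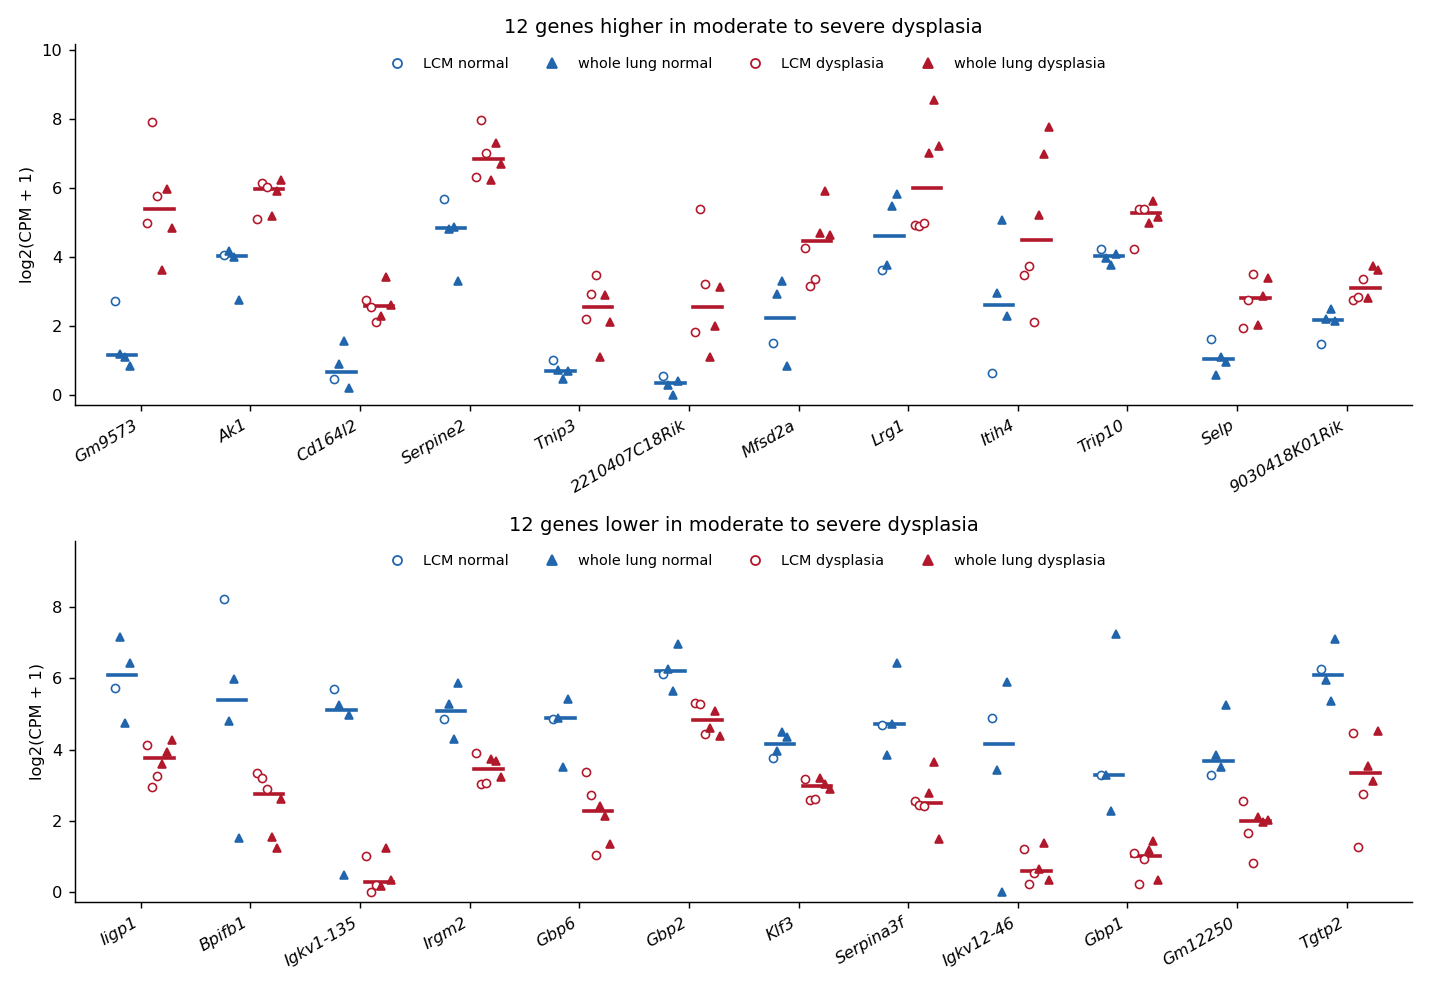
Levels of the 12 higher and 12 lower genes with the smallest edgeR p among those of mean log2 CPM of at least 1 and the same direction in LCM and whole lung samples, as log2(CPM + 1); circles are LCM samples, triangles whole lung sections, blue normal, red dysplasia, and bars the group medians. Gm9573 lies between 11.4 and 243 CPM in dysplasia against at most 5.65 CPM in normal samples, and Mfsd2a, Lrg1, Itih4, Bpifb1, Igkv1-135 and Igkv12-46 show overlapping groups.

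Genes higher in dysplasia were led by Gm9573, which RefSeq lists as Muc21, a transmembrane mucin, on chr17:35754868-35763582 (mm9). It had 5.65 CPM in LCM normal 1 and 1.27, 1.15 and 0.769 CPM in whole lung normal 1, 2 and 3, against 11.4 to 243 CPM in dysplasia with a median of 42.3 CPM. The groups were apart, and the log2 fold change of 4.69 (SE 0.79; edgeR adjusted p = 0.676; DESeq2 adjusted p = 6.70e-07) ranged from 4.03 to 5.16 over the 25 alternative fits.

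Ak1, the adenylate kinase that balances adenine nucleotides in the cytosol, had 15.6, 17.2, 15.0 and 5.69 CPM in the normal samples and 33.7 to 74.0 CPM in dysplasia (median 61.8), a log2 fold change of 2.05 (SE 0.40). Serpine2, an extracellular inhibitor of thrombin and urokinase, had 50.2, 27.2, 28.0 and 8.92 CPM in the normal samples and 74.2 to 252 CPM in dysplasia (median 116), a log2 fold change of 2.11 (SE 0.48). Both were apart between the groups, as were Cd164l2, Tnip3, 2210407C18Rik, Trip10, Selp and 9030418K01Rik. Tnip3, a restraint on NF-kB signalling, had 1.02, 0.634, 0.384 and 0.615 CPM in the normal samples and 1.14 to 10.2 CPM in dysplasia (log2 fold change 2.66, SE 0.61). Selp, which encodes the P-selectin that leukocytes roll on, had 2.04, 0.493, 1.15 and 0.923 CPM in the normal samples and 2.84 to 10.3 CPM in dysplasia (log2 fold change 2.41, SE 0.59). Trip10, an adaptor between Cdc42 and the actin skeleton, had the smallest difference of the 12, 1.23 (SE 0.30).

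Mfsd2a, a transporter of lysophospholipids carrying omega-3 fatty acids, had 1.85, 6.55, 8.83 and 0.769 CPM in the normal samples and 7.87 to 59.7 CPM in dysplasia (median 21.2), a log2 fold change of 2.74 (SE 0.65; DESeq2 adjusted p = 0.0114). Lrg1, a secreted acute-phase glycoprotein induced through STAT3, had 11.3 CPM in LCM normal 1 and 29.0 to 30.5 CPM in the 3 LCM dysplasia samples, and 12.7, 43.4 and 56.0 CPM in whole lung normal samples against 129 to 376 CPM in whole lung dysplasia. Within each source the groups did not overlap, although the pooled groups did, and the log2 fold change was 2.13 (SE 0.51). Itih4, another acute-phase protein, had 0.556, 6.76, 33.0 and 3.85 CPM in the normal samples and 3.29 to 219 CPM in dysplasia, a log2 fold change of 3.36 (SE 0.82).

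Of 29 genes of the IL-6 family and its STAT3 targets, 20 were higher and 6 were so at an unadjusted p under 0.05, against 3.91% of all genes, with a median log2 fold change of 0.34. In fits of each source alone the median was 0.05 in LCM and 0.64 in whole lung. With the samples that failed quality control added it was -0.04. After Lrg1, the leading members were Cebpb, Lif and Osmr. Cebpb, a transcription factor of the acute-phase response, had 17.5, 33.4, 64.1 and 20.1 CPM in the normal samples and 34.9 to 114.3 CPM in dysplasia (log2 fold change 1.27, SE 0.36). Lif, a cytokine of the IL-6 family, had 1.11, 0.704, 0 and 1.38 CPM in the normal samples and 2.09 to 14.4 CPM in dysplasia (log2 fold change 2.90, SE 0.84, DESeq2 adjusted p = 0.0389), with no overlap. The oncostatin M receptor Osmr had a log2 fold change of 1.10 (SE 0.36).

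Neutrophil genes and neutrophil-attracting chemokines were higher as a group, 14 of 15 tested, with a median log2 fold change of 2.20. At an unadjusted p under 0.05 there were 8, against 3.91% of all genes. Retnlg, a granulocyte secreted protein, had 0.556 CPM in LCM normal 1 and 4.17 to 9.03 CPM in LCM dysplasia, and 0.211, 24.6 and 17.5 CPM in whole lung normal samples against 76.3 to 161 CPM in whole lung dysplasia (log2 fold change 3.18, SE 0.95). Cxcl5 had 11.2, 1.34, 0.384 and 0.769 CPM in the normal samples and 2.50 to 151 CPM in dysplasia (log2 fold change 4.14, SE 1.29, DESeq2 adjusted p = 0.0316). Its lowest dysplasia values lay below LCM normal 1, and it was highest in LCM dysplasia 3 and whole lung dysplasia 3. Cxcl3 had a log2 fold change of 4.12 (SE 1.29) from at most 0.556 CPM in normal samples. Ltf, the iron-binding lactoferrin, is made by glands as well as neutrophils, and had 855, 443, 258 and 103 CPM in the normal samples and 665 to 12183 CPM in dysplasia (log2 fold change 2.17, SE 0.73). The summed list did not overlap between the groups (389 to 911 CPM in normal, 1997 to 12275 CPM in dysplasia), though 0 of the 15 genes was apart on its own. The highest of these sums, in LCM dysplasia 2, was mostly Ltf (12183 CPM). So were the sums of LCM normal 1 (855 of 911 CPM) and whole lung normal 1 (443 of 472 CPM). Over 25 alternative fits the median of the list ran from 1.63 to 3.37 and the number at an unadjusted p under 0.05 from 1, with LCM alone, to 9, and it was 4 without the 3 samples rich in T cell genes and 5 without whole lung dysplasia 2.

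Targets of p53, the factor that answers DNA damage, were higher in 23 of 27, with a median of 0.81. At an unadjusted p under 0.05, 8 were higher and 1 lower, against 3.91% and 2.78% of all genes. Psrc1, a spindle protein and p53 target, had 6.39, 6.69, 10.4 and 2.62 CPM in the normal samples and 12.7 to 49.3 CPM in dysplasia without overlap (log2 fold change 1.69, SE 0.53). Phlda3, an inhibitor of AKT, had 29.8, 46.7, 107 and 22.2 CPM in the normal samples and 99.8 to 257 CPM in dysplasia (log2 fold change 1.60, SE 0.54). Sesn2, which responds to genotoxic and nutrient stress, had a log2 fold change of 1.09 (SE 0.37), and Eda2r, a receptor of the TNF receptor family, had 2.44 (SE 0.83). Without the 3 samples rich in T cell genes, 0 of the 27 passed an unadjusted p of 0.05 and the median was 0.56. Without LCM normal 1 alone 2 passed, and without whole lung dysplasia 2 alone 4 passed.

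Collagen and matrix genes were all higher (28 of 28), 7 at an unadjusted p under 0.05 against 3.91% of all genes, with a median of 0.93. Spp1, the matrix cytokine osteopontin, had 1.48 to 18.0 CPM in the 4 normal samples and 3.25 to 480 CPM in dysplasia (log2 fold change 3.25, SE 1.17). Thbs1, a matricellular glycoprotein, had a log2 fold change of 2.30 (SE 0.89). Whole lung dysplasia 2 held the highest Spp1 and Thbs1 levels, and without it 0 of the 28 passed an unadjusted p of 0.05 (median 0.59), as was also so without whole lung normal 3 (median 0.76). The number was 2 without LCM normal 1, LCM dysplasia 2 or LCM dysplasia 3, 3 without whole lung normal 1 and 11 without LCM dysplasia 1. Of 14 matrix metalloproteinases and their inhibitors 3 were higher at an unadjusted p under 0.05, against 3.91% of all genes. Mmp19, a basement membrane protease, had 11.3 to 15.8 CPM in the 4 normal samples and 17.2 to 67.8 CPM in dysplasia without overlap (log2 fold change 1.55, SE 0.40). Mmp3, stromelysin, had a log2 fold change of 2.47 (SE 0.68) and Timp1, an inhibitor of these proteases, had 2.51 (SE 0.90). Follistatin (Fst), which binds and blocks activin, had 2.87, 2.54, 2.69 and 1.38 CPM in the normal samples and 4.26 to 42.5 CPM in dysplasia without overlap (log2 fold change 2.61, SE 0.84). It was 1 of 3 higher at an unadjusted p under 0.05 among 14 genes of the activin and parathyroid hormone-related pathways (1 without whole lung dysplasia 2), against 3.91% of all genes.

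All 22 immediate early genes, which answer growth factor and stress signals within minutes, had positive log2 fold changes (median 0.62), as did 7072 of the 15480 genes tested. At an unadjusted p under 0.05 the list had 3, against 3.91% of all genes, or 7 without whole lung normal 2 and 6 without LCM dysplasia 1. Fosb had 0.741, 0.704, 0 and 0.461 CPM in the normal samples and 1.32 to 6.62 CPM in dysplasia without overlap (log2 fold change 2.85, SE 0.74, DESeq2 adjusted p = 0.0316). Fos had a log2 fold change of 1.68 (SE 0.55) and the phosphatase gene Dusp1 had 1.39 (SE 0.50). Of 23 genes of protein folding and endoplasmic reticulum stress only Chac1, a glutathione-degrading enzyme induced by that stress, was higher at an unadjusted p under 0.05, a share near the 3.91% of all genes, with 0.648, 0.422, 0.384 and 0.769 CPM in the normal samples and 1.01 to 4.10 CPM in dysplasia without overlap (log2 fold change 2.34, SE 0.54). In the carcinogen metabolism list Sult1a1, a sulfotransferase (log2 fold change 1.17, SE 0.38), and Ephx1, the microsomal epoxide hydrolase (1.36, SE 0.53), were the 2 of 24 higher at an unadjusted p under 0.05, against 3.91% of all genes. The count was 6 without whole lung normal 2 and 1 without LCM normal 1, whole lung normal 1 or whole lung dysplasia 3. Ephx1 did not overlap (45.6 to 148 CPM in normal, 179 to 718 CPM in dysplasia).

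The epithelial lists that define the lesion by histology gave few genes at an unadjusted p under 0.05, where 3.91% of all genes were higher and 2.78% lower. All 18 airway basal cell genes had positive log2 fold changes (median 0.72) and none passed it. Without whole lung normal 2, the normal sample richest in squamous genes, 11 of the 18 passed and the median was 1.97, and without both samples of median TIN under 30 the number was 7. With TIN as a covariate the basal median was 0.28 with 5 of the 18 lower by edgeR, and 0.1 with 9 lower by limma voom. It was 0.34 without whole lung dysplasia 3 and 0.08 without the 3 samples rich in T cell genes. In A/J the basal median was -0.17, with 12 of the 18 lower. Of 29 squamous genes 21 were higher, 1 of them at an unadjusted p under 0.05: Krt16, a keratin of stressed and hyperproliferative epithelium, with 0.648, 0, 0 and 0.154 CPM in the normal samples and 0 to 80.1 CPM in dysplasia (log2 fold change 5.67, SE 1.98). The median of the squamous list turned from 0.35 to between -2.43 and 5.68 over the alternatives, and the sample richest in these genes was labelled normal. Without that sample 18 of the 29 squamous genes and 7 of 12 desmosome genes were higher at an unadjusted p under 0.05, where with all samples 1 of each list was. The desmosome median was 0.29 with all samples, -1.53 without whole lung dysplasia 3 and -0.9 with TIN as a covariate. By limma voom with TIN, 5 of the 12 desmosome genes and 4 of the 29 squamous genes were lower at an unadjusted p under 0.05. Of 40 cell cycle genes 36 were lower (median -0.62), only Ccnd1, cyclin D1, was higher at an unadjusted p under 0.05 (log2 fold change 1.66, SE 0.68), and without the 3 samples rich in thymocyte and T cell genes the median was 0.47. Without whole lung normal 1 alone 23 of the 40 were lower and the median was -0.06, and without LCM dysplasia 1 the median was -1.05, with 6 lower at an unadjusted p under 0.05. The median was -1.21 without whole lung dysplasia 1. All 17 alveolar type 2 genes had positive log2 fold changes (median 1.0) with none at an unadjusted p under 0.05. The number was 4 without whole lung normal 2 (median 1.55), 2 without whole lung dysplasia 3 and 1 without whole lung normal 1 (median 0.57), and the median was 0.66 without whole lung dysplasia 2. Among alveolar type 1 genes Aqp5, a water channel also found in airway glands, had 96.3, 31.1, 112 and 15.5 CPM in the normal samples and 122 to 1683 CPM in dysplasia without overlap (log2 fold change 2.56, SE 0.90), and Krt7, a keratin of simple epithelium, did not overlap either (2.10, SE 0.80). All 14 skeletal muscle genes tested were higher (median 3.12, 3 at an unadjusted p under 0.05 against 3.91% of all genes), with the levels given above in LCM dysplasia 3 and whole lung dysplasia 3. Without whole lung dysplasia 3 the median was 1.52, and with TIN as a covariate it was 1.16 by edgeR and 0.34 by limma voom. The count at an unadjusted p under 0.05 ran from 0 without LCM normal 1 to 10 without whole lung dysplasia 2.

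**Figure D4:**
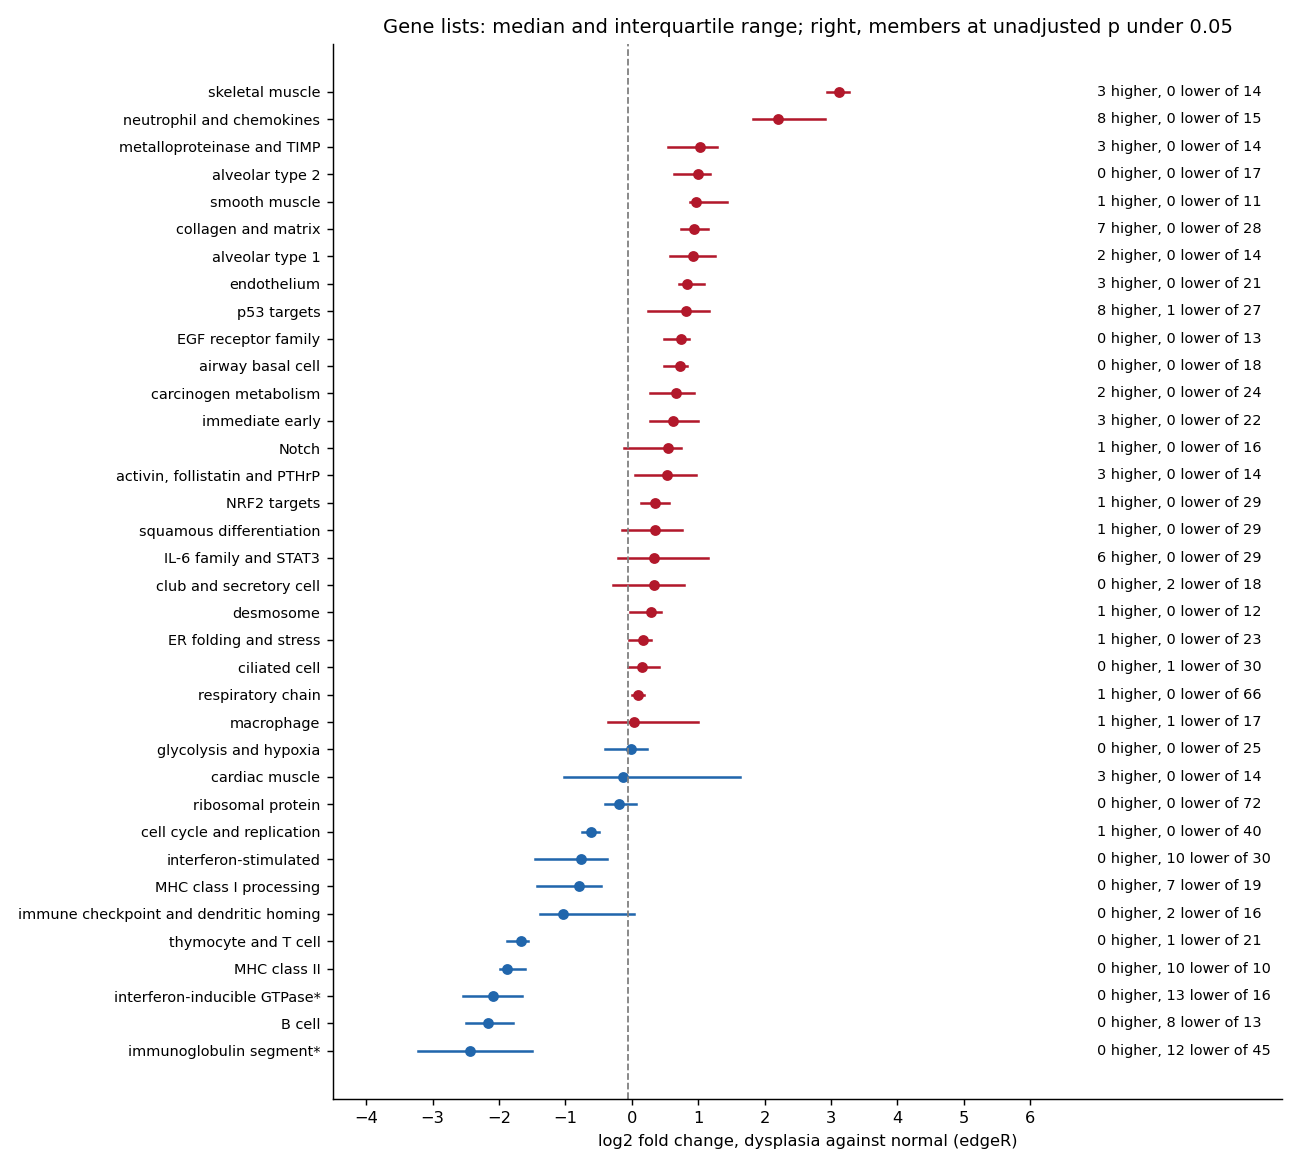
Median (point) and interquartile range (line) of the edgeR log2 fold change of dysplasia against normal for the tested genes of 36 lists, with the number of members at an unadjusted p under 0.05 at the right; the dashed line is the median of all genes, and an asterisk marks 2 lists drawn up after the values were seen. Skeletal muscle (median 3.12) and neutrophil genes (2.20) lie highest, and immunoglobulin segments (-2.44) and B cell genes (-2.17) lowest.

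LCM and whole lung samples were compared through the interaction of source with grade. By edgeR 0 genes differed at an adjusted p under 0.05 and 197 at an unadjusted one, and DESeq2 called 1, Cckar. The normal LCM arm held 1 sample, which is assumed to vary as the others do. The unadjusted count was not stable, and was several times larger when whole lung dysplasia 3 was left out. For the interferon-inducible GTPases the median difference was -2.63 in LCM and -1.94 in whole lung, and for the neutrophil list 1.51 and 2.70, on the log2 CPM scale. In edgeR fits of each source alone the order of the sources was the reverse, with medians of -2.11 in LCM and -2.18 in whole lung for the GTPases and 2.50 and 2.13 for the neutrophil list. Ciliated cell genes had a median of -1.88 in LCM and 1.24 in whole lung, and club and secretory genes -1.87 and 1.45, where the single LCM normal sample was the richest in secretory genes.

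A/J mice gave an arm with no shared samples: 3 with moderate to severe dysplasia (2 LCM and 1 whole lung, 14 µmol NTCU each) and 3 normal. The doses and the balance of sources differ from SWR/J. By edgeR 0 genes passed in A/J (485 at an unadjusted p under 0.05), and DESeq2 called 22, with Mfsd2a, Lrg1 and Spp1 among them. Of the 23 named genes also tested in A/J, which were chosen on the SWR/J samples, 21 had the same sign (91.3%), against 75.3% of the 994 genes at an unadjusted p under 0.05 in SWR/J and 62.9% of all 14998 genes tested in both strains. Among these 21 were genes with A/J values near 0 and within 1 SE of it: Iigp1 (-0.007), Gbp2 (-0.007), Selp (0.06) and Trip10 (0.09). The named genes also had to pass a level and to share a sign in both sources, which the other 2 sets did not, so the percentages are not like for like. Mfsd2a had a log2 fold change of 2.79 (SE 0.44) and Lrg1 of 2.09 (SE 0.36) in A/J, beside 2.74 and 2.13 in SWR/J.

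The interferon-inducible GTPases were lower in 15 of 16 in A/J, with a median of -0.48 in place of -2.09. Iigp1 had a log2 fold change of -0.01 (SE 0.41) and Gbp2 of -0.01 (SE 0.19) in A/J. Both were picked for small p-values in the SWR/J samples that also enter the comparison of strains. This choice favours a larger difference in SWR/J than in A/J, also for the list, which was drawn up after the values were seen. For both genes the difference between strains passed an unadjusted p of 0.05 but not the adjustment over all genes, where edgeR's strain interaction called 0 genes (341 at an unadjusted p under 0.05). With 1 sample left out that unadjusted count ran from 191 without A/J LCM dysplasia 2 to 1175 without SWR/J whole lung normal 2. DESeq2 called 4 genes for the strain interaction, namely Bpifb1, Serpina3f, Scgb3a1 and Srp54a. Bpifb1 and Serpina3f had A/J log2 fold changes of 1.59 (SE 0.65) and 1.12 (SE 0.46), opposite to SWR/J, and Scgb3a1 had 4.77 (SE 0.74). The B cell list had a median of 0.76 in A/J against -2.17 in SWR/J.

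**Figure D5:**
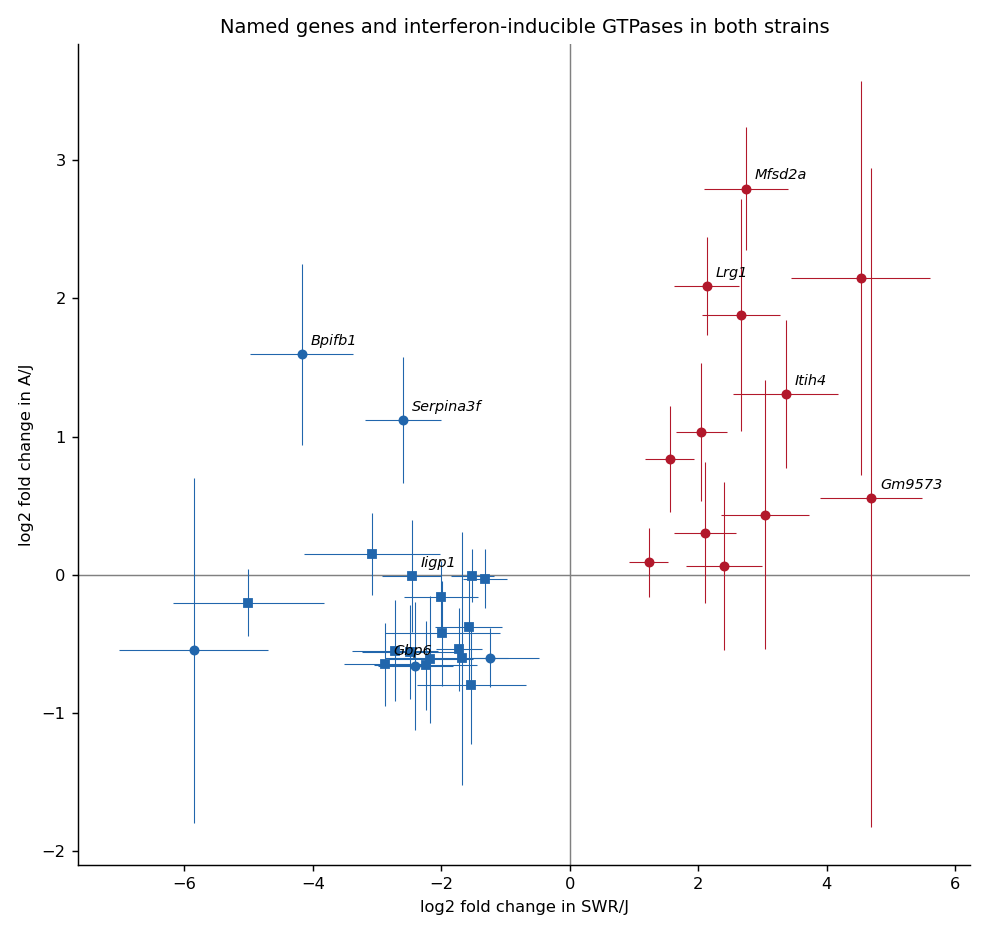
Log2 fold change of moderate to severe dysplasia against normal in SWR/J (horizontal, 6 against 4 samples) and in A/J (vertical, 3 against 3 samples) for the named genes and the interferon-inducible GTPases (squares), with bars of 1 SE from edgeR; red genes were higher and blue genes lower in SWR/J. All 12 higher genes lie above 0 in A/J, whereas Bpifb1 (1.59) and Serpina3f (1.12) lie above 0 although lower in SWR/J.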

How the data were processed

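PolyA RNA from frozen tissue was sequenced after TruSeq library preparation. The authors trimmed reads with Trimmomatic, aligned them with STAR to mm9 and estimated expected counts per gene with RSEM, and the deposited expected counts, 85.8% of them whole numbers, were rounded here. Genes with an interquartile range above 0 and a sum above 1 of log2 CPM (prior count 2), the filter the study used, were kept. The main test was robust quasi-likelihood edgeR 4.0.16 (R 4.3.3) with TMM scaling on source and grade, two-sided, with Benjamini-Hochberg adjustment over all genes. DESeq2 1.42.0 and limma 3.58.1 were alternatives. CPM used TMM library sizes. All 37310 gene IDs matched the mm9 annotation, which gave the coordinates. Scripts were tested on simulated data. Genes named were the 12 of each direction with the smallest p, given mean log2 CPM of at least 1 and the same sign in both sources, with unfilled places counted as not past the threshold, plus 4 leading members of each list. A few called by DESeq2 alone are named outside this rule. The samples, lists and rule were chosen with earlier results of these data known. Samples that failed quality control, and the other grades, entered only alternatives. Some items are not reported here.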

Additional observations from a re-analysis of the deposited data

Results flagged for a closer look

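In 234 groups of 4 or 6 samples examined (81 genes and 36 summed lists), 7 values, in 5 samples, stood apart from the rest of their group by the ratio of gap to range. The 1 in 20 that chance gives is no measure of this number, since the genes were mostly chosen for small p-values and the lists share genes with them. Whole lung normal 2 was apart for its summed squamous differentiation genes (124163 CPM) and for Igkv1-135 (0.384 CPM, the lowest of 4). Whole lung normal 3 was apart for Ak1 (5.69 CPM, the lowest of 4). LCM dysplasia 2 was apart for the summed carcinogen metabolism genes (26608 CPM) and for Ephx1 (718 CPM), LCM dysplasia 1 for Psmb9 (99.2 CPM), and whole lung dysplasia 3 for Sult1a1 (110 CPM), each the highest of 6. 

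Differences between strains that DESeq2 called were -9.60 for Srp54a, -5.64 for Bpifb1, -7.75 for Scgb3a1 and -3.77 for Serpina3f, as the log2 fold change in SWR/J minus that in A/J. Srp54a has near-identical copies, so its counts are uncertain. Between sources DESeq2 called Cckar, at -7.43 for the log2 fold change in LCM minus that in whole lung, which rests on 1 LCM normal sample. With all samples edgeR called none of these 5.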

How the results depend on the processing

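The count of 0 genes by edgeR in SWR/J was 0 in all leave-one-out fits (0 to 0) and with other scaling, gene filters, TIN, source left out, either source alone, all passed samples and each alternative added after seeing the data; it was 44 with DESeq2 and 5 with the samples that failed quality control added (Clca3, Atp6v1b1, Bpifb1, Igkv1-135 and Gbp1, all lower). The count at an unadjusted p under 0.05 ran from 547 without whole lung normal 3 to 2651 without whole lung normal 2, and was 567 without whole lung dysplasia 2, 691 without LCM dysplasia 3 and 1657 without LCM dysplasia 1. The source interaction went from 0 to 1 with DESeq2 (leave-one-out 0 to 0), and the strain interaction from 0 to 4 with DESeq2 and 0 to 1 over leave-one-out fits, the 1 being Srp54a without whole lung normal 3. Pigr, of the secretory list, turned from 1.35 to -0.72 with LCM alone, and Scgb3a1 from -3.03 to 1.54 without the 3 samples rich in T cell genes; the cause was not tested. No other named gene turned its direction. No paired analysis was possible because the labels tie no samples to 1 animal or number. The shallowest library, whole lung normal 2, also had low TIN, which limits low genes most.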
